A study of Homo sapiens with 4 samples.

Results

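The replication-dependent histone genes of the human genome lie in a few dense clusters, and the chromatin of 5 of these clusters was described here in DU145 cells. The members are the called peaks of acetylated lysine 27 of histone H3 (H3K27ac) and of the DNA-binding protein CTCF whose summit, the base of highest signal, lay in 1 of 5 intervals of the hg19 genome. In the 6p22 region of chromosome 6 these are the first cluster (chr6:26010001-26290000, 280 kb), the second cluster (chr6:27090001-27120000, 30 kb) and the third cluster (chr6:27770001-27870000, 100 kb). On chromosome 1 they are the 1q21 cluster (chr1:149780001-149870000, 90 kb) and the 1q42 cluster (chr1:228600001-228660000, 60 kb). The intervals held 58 of the 50364 H3K27ac peaks and 15 of the 36152 CTCF peaks, or 73 of 86516 peaks in all. The yardstick was the sequence between the 6p22 clusters, which carries 67 H3K27ac and 27 CTCF peaks. It falls into stretch A, between the first and second clusters (chr6:26290001-27090000, 800 kb), and stretch B, between the second and the third (chr6:27120001-27770000, 650 kb).

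The series holds 4 libraries without any drug treatment named in the labels: CTCF, H3K27ac and input chromatin of DU145 and input chromatin of LNCaP. DU145 is a prostate cancer line from a brain metastasis, and LNCaP is one from a lymph node metastasis. Formaldehyde-fixed chromatin was sonicated and pulled down with an antibody to CTCF or to H3K27ac before sequencing (ChIP-seq), and the series title names chromatin contacts associated with RNA polymerase II as the subject. There is 1 library for each mark, so no value below has a replicate, every interval covers counting error only, and no difference between intervals was tested across cultures.

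Replication-dependent histone genes supply the core histones H2A, H2B, H3 and H4 and the linker histone H1 that package newly made DNA during S phase. They are short genes without introns, and their messenger RNAs end in a stem-loop instead of a poly(A) tail. The clusters gather in nuclear structures called histone locus bodies, where the factor NPAT drives their transcription. H3K27ac is found at active promoters and enhancers. CTCF binds insulators and the anchors of chromatin loops.

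The list of histone genes used here has 67 members: 6 encode H1, 16 H2A, 17 H2B, 14 H3 and 14 H4. The first 6p22 cluster has 32 of them, the second 5, the third 16, the 1q21 cluster 11 and the 1q42 cluster 3. H1 genes are found in the first cluster, with 5, among them the testis-specific H1-6, and in the third, with H1-5. The second cluster has 2 H2A, 2 H2B and 1 H4 gene, and the 1q42 cluster has the testis-specific H3-4 and an H2A and H2B pair. A genome sequence of the build of the peaks was not used here, so peaks were not assigned to single genes, and genes are given by cluster and class. Start positions were taken from RefSeq promoter windows of GRCh38.p14, which 62 of the 67 genes had. Among these genes, 10 pairs of an H2A and an H2B gene started head to head. Their shared stretches measured 194 to 248 bases, with a median of 238. A pair that includes a gene without a window could not be counted, so there may be more.

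Promoters of 4 genes of the first cluster show how the classes are built. The bases before the annotated start are given 5′ to 3′ on the gene's strand, as RefSeq has them in GRCh38.p14. Capitals mark the TATA box (letters TATAAA), the CCAAT box (CCAAT), the octamer (ATTTGCAT) and the core of the H4 promoter element (GGTCCG), searched on both strands, so that a match on the other strand appears in its reverse complement. H1-1 (chr6:26017788-26017987, minus strand), H3C1 (chr6:26020251-26020450, plus strand) and H4C2 (chr6:26027284-26027483, minus strand) are shown by 200 bases each. H2AC6 (chr6:26123927-26124171, plus strand) is shown by the 245 bases that part it from the start of H2BC4 on the other strand.
H1-1: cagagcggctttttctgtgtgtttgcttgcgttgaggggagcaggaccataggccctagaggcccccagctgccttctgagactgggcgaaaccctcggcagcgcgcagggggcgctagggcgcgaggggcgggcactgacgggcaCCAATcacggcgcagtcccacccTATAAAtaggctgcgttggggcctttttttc
H3C1: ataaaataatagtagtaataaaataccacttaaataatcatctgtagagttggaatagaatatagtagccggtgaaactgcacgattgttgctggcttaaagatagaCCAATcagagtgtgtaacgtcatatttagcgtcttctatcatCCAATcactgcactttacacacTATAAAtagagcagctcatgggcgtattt
H4C2: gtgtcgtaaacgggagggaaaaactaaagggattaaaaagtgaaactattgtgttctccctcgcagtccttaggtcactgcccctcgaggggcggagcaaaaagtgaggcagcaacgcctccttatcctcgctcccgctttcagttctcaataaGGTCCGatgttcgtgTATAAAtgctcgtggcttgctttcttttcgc
H2AC6: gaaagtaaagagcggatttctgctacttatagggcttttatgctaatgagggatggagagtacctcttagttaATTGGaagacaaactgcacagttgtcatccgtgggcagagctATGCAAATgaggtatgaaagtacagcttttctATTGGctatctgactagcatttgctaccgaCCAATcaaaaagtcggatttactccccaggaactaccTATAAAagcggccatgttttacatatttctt

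In these 4 sequences the TATA box began 29 to 31 bases before the start. H3C1 had CCAAT boxes 51 and 93 bases before its start, and H1-1 had 1 at 54 bases. H4C2 held no CCAAT box in the bases shown and had the H4 element core at 46 bases. The shared stretch of H2AC6 and H2BC4 had 3 CCAAT boxes and 1 octamer. No matches of different motifs overlapped here.

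The same search was made in the 300 bases around the start of the 62 list genes that have a RefSeq window and of all 27305 genes that have one. The TATA box was present in 40 of 62 histone windows (64.5%) against 11.95% of all windows. The CCAAT box was present in 53 (85.5%) against 35.7%, and every H1, H2A, H2B and H3 window had it while 3 of 12 H4 windows did. The octamer was present in 24 (38.7%) against 1.80%. It fell in 13 of 17 H2B and 10 of 15 H2A windows. The windows of a head-to-head pair overlap, so a match can be counted for both genes: the octamers of the 24 windows were 16 separate places in the genome, and 7 of these lay in more than 1 window. Counts for the other motifs share matches in the same way, and the windows of a pair are not separate promoters. The H4 element core was present in 14 (22.6%) against 11.2%, and 11 of the 14 were H4 windows. A match is a description of letters and not of binding.

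H3K27ac peaks were dense in the clusters. The 5 clusters together had 103.6 H3K27ac peaks per Mb (95% exact Poisson interval 78.7 to 133.9), against 16.5 per Mb over the assembled chromosomes. Peaks covered 15.6% of cluster bases, or 87.4 kb of 560 kb, against 1.42% of the assembled chromosomes. Density was thus 6.26 times and covered share 10.96 times the genome-wide value. The larger ratio for coverage goes with the greater width of cluster peaks.

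The clusters did not carry the mark alike. The third cluster had the highest density, with 180 peaks per Mb (106.7 to 284.5) from 18 peaks, and the second followed with 166.7 (54.1 to 388.9) from 5. The 1q21 cluster had 122.2 per Mb (61.0 to 218.7) from 11 peaks, and the first 6p22 cluster 78.6 per Mb (49.2 to 119) from 22. These 4 intervals overlap, so the order among them is not fixed by the counts. The 1q42 cluster had 2 peaks, or 33.3 per Mb (4.04 to 120.4).

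By covered share the order changed. H3K27ac peaks covered 27.6% of the 1q21 cluster, 22.1% of the third, 20.2% of the second and 11.7% of the first 6p22 cluster. The 1q42 cluster had 2.85% covered, less than either stretch between the 6p22 clusters. Over consecutive windows of the same length along the chromosomes, 0.285% held at least as large a share as 1q21, 0.540% as the third cluster, 1.29% as the second, 1.67% as the first and 14.01% as 1q42. Many windows hold no peak, and of those with at least 1 the shares were 0.812, 1.47, 6.69, 3.08 and 48.9% in the same order. By number of peaks, 3.04, 1.12, 2.61, 5.04 and 18.4% of all windows had at least as many.

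**Figure D1:**
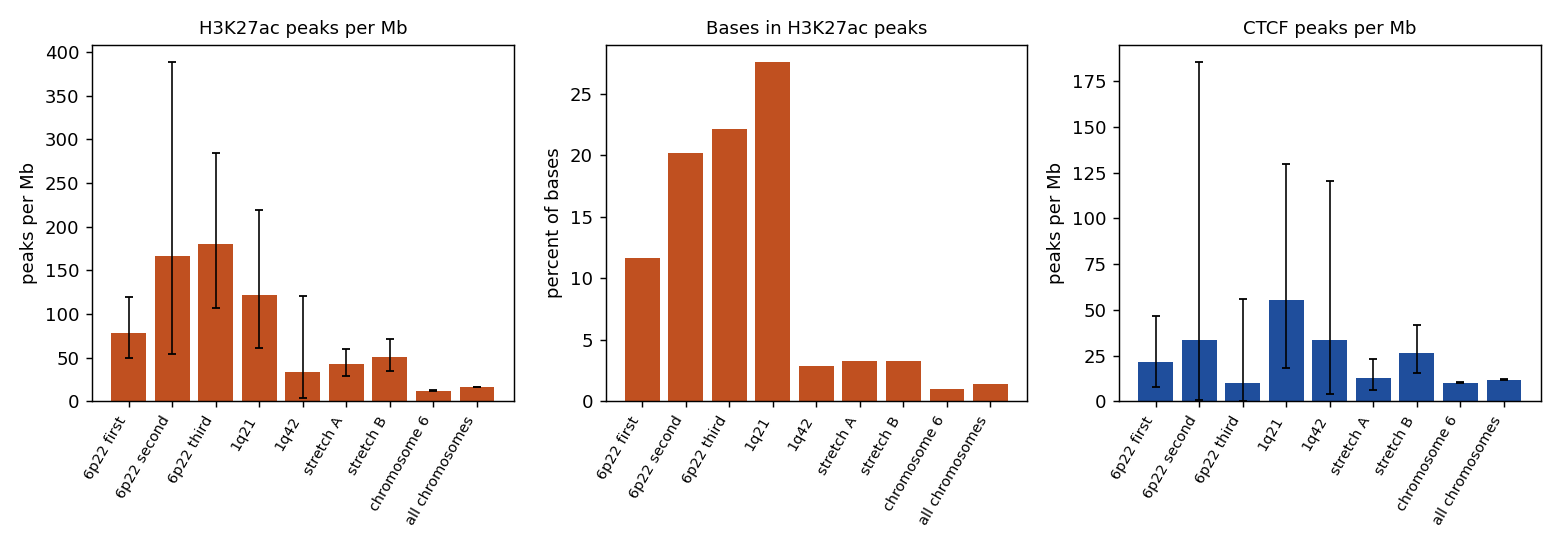
H3K27ac peaks per Mb (left), percent of bases inside H3K27ac peaks (middle) and CTCF peaks per Mb (right) for the 5 clusters, the stretches A and B, chromosome 6 and all assembled chromosomes; whiskers are exact Poisson 95% intervals on the peak number. The first 4 clusters have 11.7 to 27.6% of bases covered, stretches A and B 3.26 and 3.27%, and 1q42 2.85%.

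Per listed histone gene, the acetylated sequence came to 1.02 kb in the first cluster, 1.21 kb in the second, 1.38 kb in the third, 2.26 kb in 1q21 and 0.569 kb in 1q42. These values count every H3K27ac peak of an interval, including any that lie at other genes. The first cluster, lowest of the 6p22 clusters in density and coverage, was also lowest per gene, but closer to the second and the third. The 1q21 cluster stood above the other 4 on this scale.

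Against the sequence between them, the 6p22 clusters had more, wider and stronger H3K27ac peaks. The 3 clusters together had 45 peaks, or 109.8 per Mb (80.1 to 146.9), and the stretches 67 peaks, or 46.2 per Mb (35.8 to 58.7). By count of called peaks the intervals do not overlap, and the ratio was 2.38. These intervals treat each peak as a separate count, while neighbouring peaks can be pieces of 1 domain. Joined within 500 bases, clusters and stretches had 58.5 and 38.6 blocks per Mb, and no interval was computed for blocks. The gap between the intervals therefore applies to called peaks only. Covered share was 14.8% in the clusters and 3.26% in the stretches, a ratio of 4.55. Stretches A and B resembled each other, with 42.5 (29.4 to 59.4) and 50.8 (34.95 to 71.3) peaks per Mb and 3.26 and 3.27% of bases covered.

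The stretches were not empty ground. They had 3.86 times the peak density and 3.17 times the covered share of chromosome 6 as a whole, which had 11.99 peaks per Mb and 1.03% of bases covered. The contrast between clusters and stretches is therefore a contrast within a region that is itself rich in H3K27ac peaks. By gene order in GRCh38.p14, stretch A holds butyrophilin genes, transfer RNA genes, HMGN4, ABT1 and ZNF322, and stretch B holds PRSS16, ZNF391, ZNF184 and further transfer RNA genes.

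Width set the pooled clusters apart. The median H3K27ac peak was 1088 bases wide in the clusters (quartiles 663.2 and 2217), 543 bases in the stretches (411 and 909.5) and 566 bases over the whole list. Cluster by cluster the median was 873.5 bases in the first, 1551 in the second, 1100 in the third, 2265 in 1q21 and 854 in 1q42. Peaks wider than 1000 bases made up 31 of 58 cluster peaks (53.4%, exact binomial interval 39.9 to 66.7%), 14 of 67 stretch peaks (20.9%, 11.9 to 32.6%) and 25.5% of the whole list. The stretches were close to the genome in width, and the pooled clusters were not. The 6p22 clusters alone had 51.1% over 1000 bases (35.8 to 66.3%). Single clusters did not all stand apart. The share was 45.5% in the first (24.4 to 67.8%) and 60% in the second (14.7 to 94.7%), intervals that hold the list's 25.5%. It was 55.6% in the third (30.8 to 78.5%), 72.7% in 1q21 (39.0 to 94.0%) and 0 of 2 peaks in 1q42.

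The plot of width along 6p22 shows where the wide peaks lie. In the 3 clusters 7 of 45 peaks exceeded the widest stretch peak, which measured 2416 bases (chr6:27439191-27441606, fold enrichment 14). The next widest stretch peak measured 1820 bases.

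**Figure D2:**
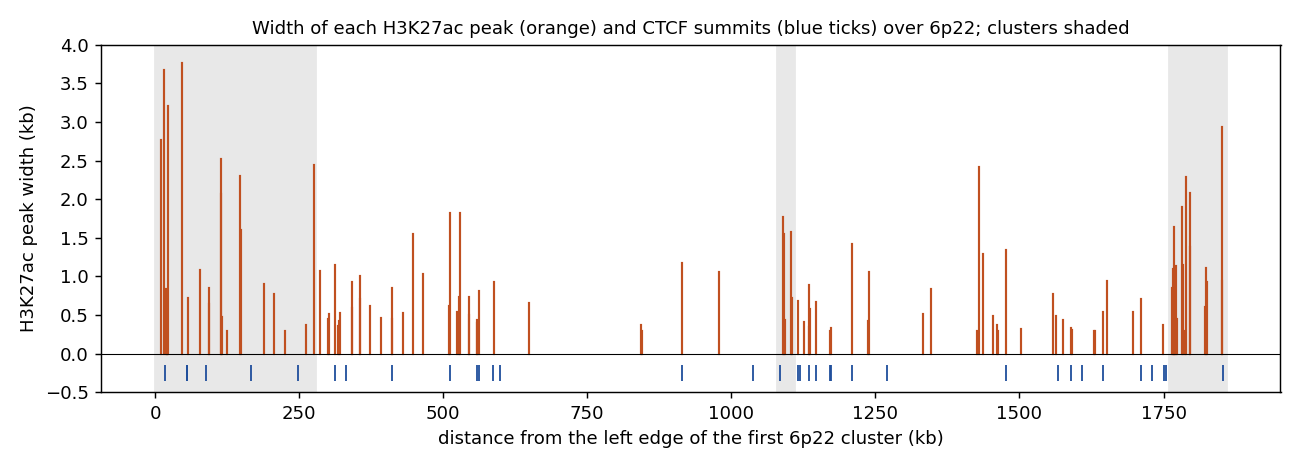
Width in kb of every H3K27ac peak (orange lines) and position of every CTCF summit (blue ticks) against distance in kb from the left edge of the first 6p22 cluster; the 3 clusters are shaded. Widths reach 3764 bases in the first cluster, 1767 in the second and 2934 in the third, against 2416 in the sequence between them.

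Fold enrichment, the authors' ratio of signal at the summit to local background, gave the same picture within the H3K27ac list. Its median was 11.7 in the clusters, 5.18 in the stretches and 4.55 over the list. It was 7.93 in the first cluster, 11.7 in the second, 12.97 in the third, 17.7 in 1q21 and 4.97 in 1q42. A fold of 20 or more was reached by 18 of 58 cluster peaks (31.0%) and 3 of 67 stretch peaks (4.48%), against 7.19% of the list. The 18 strong peaks were divided among the first cluster with 6, the third and 1q21 with 5 each and the second with 2.

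Strong peaks were wide, but not every wide peak was strong. The 18 peaks with a fold of 20 or more had a median width of 2486 bases (1134 to 6051), and the other 40 a median of 840. The stretches showed the same relation, with a median of 1815 bases for their 3 strong peaks and 536.5 for the other 64. Of all cluster peaks, 22 (37.9%) were in the top 10% of the H3K27ac list by fold, 13 in the top 5% and 1 in the top 1%. By width, 19 were in the top 10% and 11 in the top 5%. The cluster peaks were high in the list without being its extremes.

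**Figure D3:**
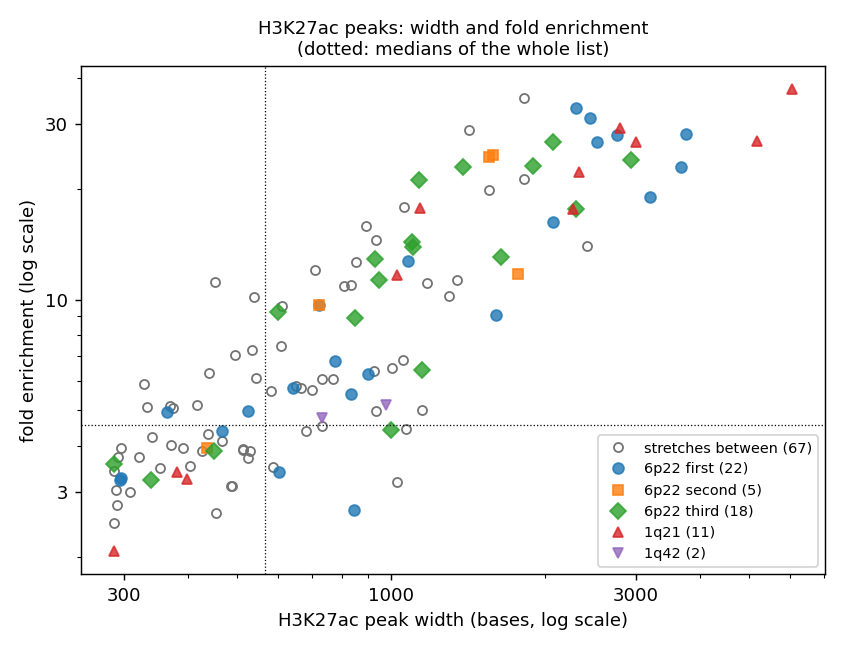
Fold enrichment against width in bases for the 58 H3K27ac peaks of the clusters (filled, by cluster) and the 67 of the stretches (open circles), both axes logarithmic; dotted lines are the medians of the whole list, 566 bases and 4.55. Cluster peaks fill the upper right, where 18 of them but 3 stretch peaks reach a fold of 20, and 13 cluster peaks lie below the median fold.

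Not every cluster peak was strong. Below the list's median fold were 13 of 58 cluster peaks (22.4%) and 28 of 67 stretch peaks (41.8%). These weak cluster peaks were narrow, with a median of 399 bases and a maximum of 999. The weak stretch peaks were narrow too, with a median of 433 bases and a maximum of 1070. In the clusters 13 of the 38 peaks under a fold of 20 that shared a cluster with a strong peak lay within 1 kb of one. The same count was not made for the stretches or the whole list, so it cannot be called a trait of the clusters. Of the cluster peaks 43 had a −log10 q of at least 10 (74.1%), against 43.4% of the list.

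In the second cluster and the third, peaks came in tight groups. The distance from one H3K27ac peak to the next had a median of 221.5 bases in the second and 265 in the third, against 11210 in the stretches and 4080 over the assembled chromosomes. The first cluster and 1q21 did not share this, with medians of 8706 and 2318 bases. The distance was under 500 bases for 3 of 4 neighbours in the second cluster, 11 of 17 in the third (64.7%), 7 of 21 in the first (33.3%) and 3 of 10 in 1q21 (30%), against 16.9% in the stretches and 26.9% genome-wide. Over all clusters the median was 768 bases, and 25 of 53 distances were under 500 (47.2%). Whether such close neighbours are pieces of 1 acetylated domain that the peak caller split was not tested.

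Joining peaks up to 500 bases apart turned the 58 cluster peaks into 33 blocks with a median length of 2845 bases, and the 67 stretch peaks into 56 blocks of 658 bases. The median length was 1679 bases in the first cluster, 3306 in the second, 3250 in the third and 2904 in 1q21. More than 1 peak made up 7 of 7 blocks in the third cluster and 2 of 2 in the second, but 4 of 15 in the first (26.7%) and 3 of 8 in 1q21 (37.5%), against 27.3% of blocks genome-wide. Over all clusters it was 17 of 33 (51.5%), and in the stretches 10 of 56 (17.9%). On this scale 6p22 clusters and stretches had 58.5 and 38.6 blocks per Mb, with median lengths of 2957 and 658 bases. On 6p22 the difference in number thus shrank to 1.52 times, while that in median length grew to 4.49 times. There were 2.13 listed genes per block in the first cluster, 2.5 in the second, 2.29 in the third, 1.38 in 1q21 and 3 in 1q42.

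**Figure D4:**
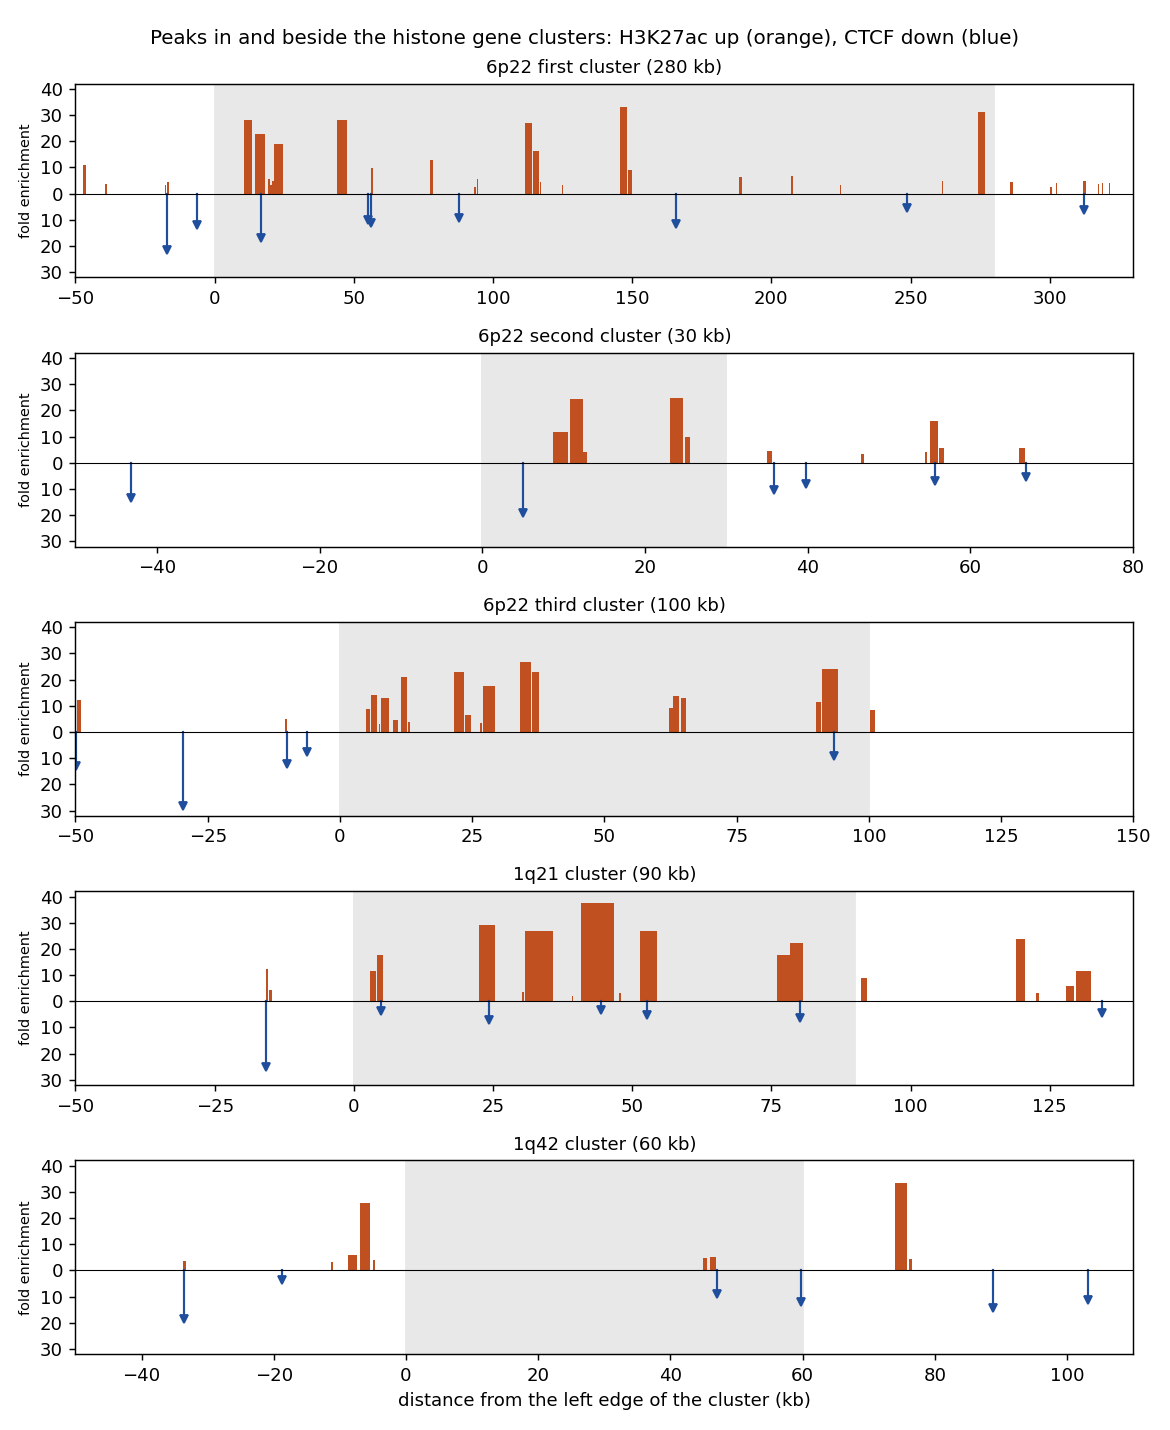
Each cluster (shaded) with 50 kb to either side, drawn against distance in kb from its left edge; orange bars are H3K27ac peaks to scale with height equal to fold enrichment, and blue arrows pointing down are CTCF summits with length equal to their fold enrichment in the CTCF list. H3K27ac reaches a fold of 33.1 in the first cluster and 37.4 in 1q21 but 5.17 in 1q42, and all 5 CTCF summits of 1q21 fall in H3K27ac peaks.

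In the first 6p22 cluster, acetylation was gathered in a few places with long free runs between. The left end held 6 peaks in 13.98 kb (chr6:26020625-26034609), among them the peaks at chr6:26024539-26028211 (3673 bases, fold 22.9), chr6:26031410-26034609 (3200 bases, fold 18.97) and chr6:26020625-26023388 (2764 bases, fold 28.0). The widest peak of the cluster followed at chr6:26053883-26057646, with 3764 bases and a fold of 28.2. The peak at chr6:26121666-26124190 was 2525 bases wide, with a fold of 26.8. The strongest was chr6:26155766-26158064, with a fold of 33.1 and 181 summit fragments (155.6 to 209.4 by exact Poisson).

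To the right of that strongest peak the first cluster became sparse. No H3K27ac peak was called over 38.6 kb (chr6:26159977-26198565), which is the longest free run of the cluster. The next 4 peaks had folds of 3.22 to 6.80. A last strong peak stood near the right end (chr6:26284357-26286804, fold 31.1, chosen here after its value was seen), 3.82 kb from the edge by its summit. Strong peaks thus stood from the left end to about the middle of the interval, and again near its right end.

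The second cluster had 5 peaks in 2 groups 10.2 kb apart. The widest, chr6:27098749-27100515, measured 1767 bases with a fold of 11.7. The strongest, chr6:27113097-27114675, measured 1579 bases with a fold of 24.8 from 168 fragments (143.6 to 195.4). Peaks covered 6.05 kb of the 30 kb.

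In the third cluster every peak had a neighbour within 500 bases. The 18 peaks formed 7 blocks, each of 2 to 4 peaks, 2.85 to 4.47 kb long. Joining peaks within 5 kb left 4 domains, the longest 16.2 kb with 6 peaks. The last 3 domains were set apart by 2 free runs of 24.65 kb each (chr6:27807673-27832320 and chr6:27835390-27860041). The strongest peak was chr6:27804087-27806159 (2073 bases, fold 26.7, 173 fragments, 148.2 to 200.8). The widest was the last, chr6:27861182-27864115, with 2934 bases and a fold of 24.0.

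The 1q21 cluster had the widest and strongest peak of all 5 clusters. This peak, chr1:149820779-149826829, was 6051 bases wide with a fold of 37.4 from 302 fragments (268.9 to 338.1), and 99.7% of list peaks were narrower and 99.01% weaker. Beside it lay chr1:149810681-149815854 (5174 bases, fold 27.0), chr1:149831402-149834409 (3008 bases, fold 26.9) and chr1:149802550-149805348 (2799 bases, fold 29.3). With 5 kb allowed between peaks, 7 peaks joined into 1 domain of 31.9 kb. This is the longest such domain in the 5 clusters.

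Values in 1q21 carry limits of their own. The cluster holds duplicated genes: in the RefSeq windows H4C14 and H4C15 were identical over 300 of 300 bases, H3C14 and H3C15 over 296 of 296, and H2AC18 and H2AC19 over 299 of 299, each pair on opposite strands. Reads from identical copies cannot be placed on one of them, and how such reads were treated is not given in the sources used here. The local background at H3K27ac peaks was 2.45 times the genome-wide level in 1q21, against 1.65 in the 6p22 clusters, 1.62 in the stretches and 1.22 over the list. Its part in the result was not tested.

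The 1q42 cluster was the exception. Its 2 peaks, chr1:228644873-228645604 (732 bases, fold 4.76, 26 fragments, 16.98 to 38.1) and chr1:228645979-228646954 (976 bases, fold 5.17, 22 fragments, 13.8 to 33.3), were near the list's median fold and within 500 bases of each other. Neither was wider than 1000 bases, and the first 44.9 kb of the cluster had no H3K27ac peak. Stronger peaks lay outside, and 2 of them are given here after their values were seen: one with a fold of 25.6 stood 5.74 kb before the cluster and one with a fold of 33.3 stood 14.9 kb after it. With 2 peaks, the density of this cluster cannot be told from that of the stretches or of the genome.

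Between the 6p22 clusters, strong acetylation occurred but was rare. The strongest H3K27ac peak of stretch A, chr6:26521218-26523032 (1815 bases, fold 35.2, 185 fragments), exceeded every peak of the 6p22 clusters in fold. The widest of stretch A was chr6:26537812-26539631 (1820 bases, fold 21.3). The strongest of stretch B was chr6:27218339-27219759 (1421 bases, fold 29.0, 120 fragments). These are the only stretch peaks with a fold of 20 or more. Stretch A also had the longest run free of H3K27ac peaks, 192.4 kb (chr6:26659998-26852369), and that of stretch B was 93.2 kb.

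Density and coverage just beside the clusters lay between those of clusters and stretches, and fold did not. Windows of 50 kb were taken on either side of each cluster, and those between the 6p22 clusters also count in the stretches. All these windows held 34 H3K27ac peaks, or 68 per Mb (47.1 to 95.02), and 5.56% of their bases were covered. Their median width was 587.5 bases and their median fold 4.42, below the 5.18 of the stretches and near the whole list. A peak of fold 8.53 (chr6:27870326-27871156) had its summit 0.523 kb past the right edge of the third cluster and was not counted in it. The nearest member inside an edge was a CTCF peak with its summit 0.286 kb before the right edge of 1q42.

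The density of CTCF peaks in the 6p22 clusters lay between those of the 2 stretches. The 6p22 clusters had 8 CTCF peaks, or 19.5 per Mb (8.42 to 38.45), and the stretches 27, or 18.6 per Mb (12.3 to 27), a ratio of 1.05. Stretch A had 10, or 12.5 per Mb (5.99 to 23), and stretch B 17, or 26.15 per Mb (15.2 to 41.9). All these intervals overlap, so the counts fix no order. By value the clusters and the pooled stretches were above chromosome 6 as a whole, at 10.2 per Mb. The 5 clusters together had 26.8 per Mb (14.99 to 44.2) against 11.9 over the assembled chromosomes. The windows beside the clusters had 18 CTCF peaks, or 36 per Mb (21.3 to 56.9).

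The CTCF peaks were spread unevenly over the clusters. The first 6p22 cluster had 6 (21.4 per Mb), the second 1, the third 1, 1q21 5 (55.6 per Mb) and 1q42 2. By fold in the CTCF list their median was 9.28, beside 12.2 in the stretches and 9.52 over the list. A −log10 q of at least 10 was found for 12 of 15 (80.0%), against 79.8% of the list. None of the 15 reached a fold of 20, against 9.82% of the list, and 15 peaks are too few to tell these apart.

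In the first cluster 2 of the 6 CTCF peaks shared bases with H3K27ac (33.3%, exact binomial interval 4.33 to 77.7%), against 14.2% of the CTCF list. The strongest, at 26026551 on chromosome 6 (fold 16.8, 97 fragments, 78.7 to 118.3), lay inside the 3673-base H3K27ac peak, with summits 979 bases apart. A pair followed at 26064817 (fold 10.0, 1.31 kb from the nearest H3K27ac peak) and 26066183 (fold 11.1, overlapping the edge of a 721-base peak). The peak at 26097576 (fold 9.33) lay 5.26 kb from H3K27ac. The peak at 26175679 (fold 11.7, 63 fragments) stood alone in the 38.6-kb free run. The last, at 26258578 (fold 5.49, 23 fragments), lay 12.5 kb from H3K27ac.

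All H3K27ac peaks of the second cluster lay between a pair of neighbouring CTCF peaks. A CTCF peak at chr6:27094799-27095126 (fold 19.2, 97 fragments, 78.7 to 118.3) preceded the first H3K27ac peak by 3.62 kb. The other, at 27125772 (fold 10.4), followed 5.895 kb past the right edge. All 5 H3K27ac summits of the cluster fell in the 30.9 kb between these CTCF summits, and no further CTCF peak was called between them. An H3K27ac peak outside the cluster, chr6:27124982-27125661 (fold 4.38), also lay there, 0.11 kb from the right-hand CTCF peak. How often intervals of such length lie between neighbouring CTCF summits elsewhere was not counted, for this cluster or the third. The next CTCF peaks to the right, at 27129663, 27145520 and 27156545, had folds of 7.96, 7.13 and 5.59, and the nearest to the left, at 27046655 (fold 13.5), lay 43.2 kb before the cluster.

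In the third cluster all H3K27ac summits, but not all acetylated bases, lay between neighbouring CTCF summits. A CTCF peak at 27763720 (fold 7.56) lay 6.16 kb before its left edge, and its only CTCF peak inside, chr6:27863333-27863624 (fold 9.28, 60 fragments), lay within the last H3K27ac peak. All 18 H3K27ac summits fell in the 99.65 kb between them. The right-hand CTCF summit lay 6.52 kb inside the cluster, the H3K27ac peak around it ran on past it, and the H3K27ac peak just outside the cluster lay beyond it. To the left stood further CTCF peaks at 27759894 (fold 12.2), 27740252 (fold 28.4, the strongest of stretch B) and 27719986 (fold 13.1). To the right no CTCF peak was called within 50 kb, and the next summit lay 202.5 kb past the edge.

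The first cluster had CTCF summits among its H3K27ac summits. On its left, CTCF peaks at 26003378 (fold 12.04) and 25992747 (fold 21.5, 139 fragments) lay 6.501 and 17.1 kb before the edge. On its right the next CTCF peak, at 26322306 (fold 6.39), lay 32.4 kb past the edge, after the strong H3K27ac peak at the end. The CTCF summits inside divided the cluster into runs, of which the one of 78.1 kb between 26097697 and 26175805 held 8 H3K27ac peaks and the 82.9 kb that followed held 3. The strongest CTCF peak of stretch A, chr6:26341752-26342144 (fold 18.5, 80 fragments), lay further to the right and shared no base with H3K27ac.

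In 1q21, CTCF and H3K27ac coincided. All 5 CTCF peaks had their summit inside an H3K27ac peak with a fold of 17.7 or more, including the widest one. Their own folds were low, at 3.57, 7.04, 3.47, 5.28 and 6.51 from left to right (peaks starting at 149784758, 149804170, 149824331, 149832242 and 149860040). Their percentiles in the CTCF list ran from 1.54 to 31.6. Distances between CTCF and H3K27ac summits were 7, 559, 1506, 587 and 1335 bases.

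The local background at these CTCF peaks was high. It was 4.58, 2.75, 2.08, 3.66 and 2.43 times the genome-wide level, against a median of 1.90 in the 6p22 clusters and 1.37 over the list. Its part in their low folds was not tested. The fragments at their summits were 42, 53, 20, 51 and 44, and the list's median was 45. A strong CTCF peak stood to the left of the cluster at 149763995 (fold 24.99, 153 fragments), 15.8 kb before its edge. The next on the right, at 149914224, had a fold of 4.31 and lay 44.3 kb past the edge. The duplicated copies limit these positions too.

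The 1q42 cluster had CTCF peaks at 228646820 (fold 8.87, 32 fragments), overlapping the edge of the second H3K27ac peak, and at chr1:228659568-228659890 (fold 12.1, 47 fragments), 12.6 kb from H3K27ac. Outside it, CTCF peaks at 228566277 (fold 18.4) and 228581257 (fold 3.66) lay 33.5 and 18.7 kb before the edge. Peaks at 228688472 (fold 14.3) and 228703036 (fold 11.3) lay 28.8 and 43.2 kb after it. In this cluster CTCF peaks equalled H3K27ac peaks in number.

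Counted together, 9 of 15 cluster CTCF peaks shared at least 1 base with an H3K27ac peak (60%, exact binomial interval 32.3 to 83.7%), against 14.2% of the CTCF list. The summit lay inside the H3K27ac peak for 7, against 8.4% of the list. The cluster share was 33.3% among CTCF peaks at or above their list's median fold, with both lists so reduced, and 77.8% without the first cluster. Both values rest on fewer than the 15 peaks. The share over the equally reduced CTCF list was not computed, so the 14.2% is no yardstick for the 33.3%. In the stretches 14 of 27 shared a base (51.9%) and 8 had the summit inside. Beside the clusters 7 of 18 did and 4 had the summit inside. The high share was thus found in the region between as well, and the clusters differed among themselves, with 5 of 5 in 1q21, 3 of 8 on 6p22 and 1 of 2 in 1q42. On 6p22 alone the clusters, at 37.5% (8.52 to 75.5%), were below the stretches, at 51.9% (31.95 to 71.3%). These intervals overlap.

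The overlapping cluster peaks had a median CTCF fold of 7.04 (n = 9) and the others 10.9 (n = 6). All 5 of 1q21 are among the former. Seen from H3K27ac, 9 of 58 cluster peaks shared a base with CTCF (15.5%, 7.35 to 27.4%), 14 of 67 stretch peaks (20.9%) and 10.1% of the list. On 6p22 alone it was 3 of 45 cluster peaks (6.67%, 1.40 to 18.3%). Both cluster intervals, for all 58 peaks and for 6p22 alone, hold the share of the list.

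**Figure D5:**
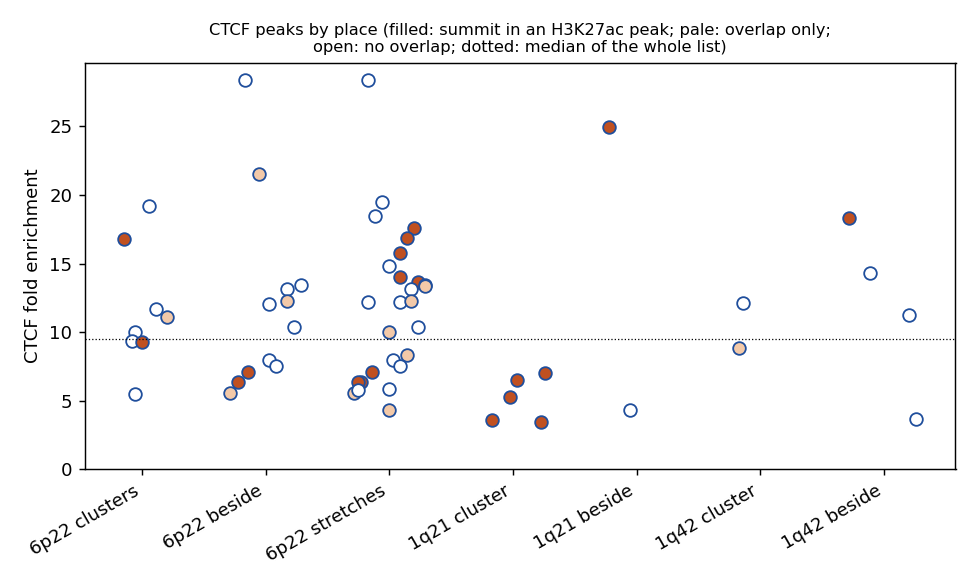
CTCF fold enrichment of every CTCF peak in the clusters, within 50 kb beside them and in the stretches between the 6p22 clusters (peaks beside the 6p22 clusters in the stretches appear under both); points are spread sideways for legibility, and the dotted line is the median of the CTCF list, 9.52. All 5 points of 1q21 are filled, with the summit in an H3K27ac peak, and lie between 3.47 and 7.04, while the strongest points, at 28.4 and 24.99, lie outside the clusters.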

How the data were processed

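The DU145 CTCF and H3K27ac peak lists were analysed, each called on 1 library. Bowtie and MACS2 were used on hg19, per the submitters' processing notes; the sources used here give no versions or settings and do not say which input served as background. A peak has coordinates and, as deposited by the authors, a score (not used here), a fold enrichment, which is a linear ratio of summit signal over local background, and −log10 values of its p-value and q-value. Fold was compared only within a list.

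Peaks were placed by their summit, and positions count from 1. Fragments at each summit and the local background were solved from the deposited fold and −log10 p, which fit a fold with 1 added to both; with a tolerance of 0.002 this worked for 99.986% of CTCF peaks (fragment scale 0.911) and 100% of H3K27ac peaks (scale 1), and was tested on simulated data. Summits had a median of 45 fragments for CTCF and 23 for H3K27ac; background is given relative to its genome-wide level of 2.18 and 3.18 fragments. Intervals are exact Poisson or exact binomial (Clopper-Pearson) at 95% and cover counting error only. Density uses interval length, and chromosome lengths run from the first to the last peak. Overlap required 1 shared base, and blocks joined H3K27ac peaks within 500 bases.

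Python 3.11.15, pandas 2.3.3 and scipy 1.17.1 were used. The intervals, the gene list and the thresholds (a fold of 20, 1000 bases) were chosen with earlier results of these data known. Peaks were named by a rule: every CTCF peak in or within 50 kb of a cluster; the strongest and widest H3K27ac peak of each cluster and stretch; the 10 widest over all clusters; and the strongest CTCF peak of each stretch. Alternatives varied the q filter, the fold filter, the placing of peaks, the edges and the joining of peaks, and left out the first cluster. All 67 genes matched the RefSeq table of GRCh38.p14, 1 by an older symbol; 5 of them (H4C1, H4C3, H2AC12, H3C11 and H3C12) lacked a promoter window. The input libraries were not analysed here.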

Additional observations from a re-analysis of the deposited data

How the results depend on the processing

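Each mark had 1 library, so how far these values vary between cultures is unknown. Of 50 alternatives, 41 stayed near the value reported and 9 did not. Near means within its exact Poisson or binomial interval, for a median within its order-statistic interval, and for covered share and the number of CTCF peaks within 1.5 times. These limits are wide: 23 CTCF peaks in place of 33, and an overlap of 33.3% in place of 60%, counted as near. Placing peaks by 1 shared base changed no value, and joining changed no CTCF value. The tally of 41 is therefore not a measure of robustness. Requiring a −log10 q of 10 or more gave 76.8 H3K27ac peaks per Mb in the clusters and 72.1% of peaks over 1 kb, and raised their median fold from 11.7 to 17.6. Keeping peaks at or above the list's median fold gave 68.9% over 1 kb, 10.7 CTCF peaks per Mb and 17 CTCF peaks within and beside the clusters in place of 33. Joining H3K27ac peaks within 500 bases gave 58.9 per Mb, a median width of 2845 bases, a median fold of 21.2 (the highest of each block) and 75.8% over 1 kb. By construction the filters drop weak peaks and joining merges neighbours. The share of cluster CTCF peaks that overlap H3K27ac ranged from 33.3 to 77.8% over its alternatives. Across the alternatives run on 6p22, the ratio of clusters to stretches was 1.52 to 3.17 for H3K27ac density, 4.55 to 5.78 for coverage, 1.70 to 4.49 for median width and 0.9902 to 1.05 for CTCF density. For the share of CTCF peaks overlapping H3K27ac that ratio was 0.723 to 0.85. No paired analysis was possible because each group has 1 library and no result comes from a test between samples.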

Other observations

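The 4 widest H3K27ac peaks of the 1q21 cluster, those over 2500 bases, lay as 2 nested pairs around almost the same centre. The outer pair measured 2799 and 3008 bases, with folds of 29.3 and 26.9 from 245 and 235 fragments at their summits. The inner pair measured 5174 and 6051 bases, with folds of 27.0 and 37.4 from 278 and 302 fragments. The midpoint of the outer pair was 149818427 and that of the inner pair 149818536 on chromosome 1 (hg19), 108.5 bases apart. The RefSeq promoter windows of H4C14 and H4C15, of H3C14 and H3C15 and of H2AC18 and H2AC19 are identical within each pair and lie on opposite strands. The width limit of 2500 bases was set after the values were seen, and the symmetry is given as a description.

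The letters AGGGGGC, part of the sequence that CTCF is known to bind, occurred in 2 of 62 histone promoter windows (3.23%) and in 14.1% of all 27305 windows of 300 bases, either strand. This count is of letters in RefSeq windows and not of CTCF peaks.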
